A study of Mus musculus with 11 samples.

Results

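The ventricular levels of 7 genes that carry or shape the electrical impulse of the heart were read in every mouse of a heart RNA sequencing experiment. They are the sodium channel subunit genes Scn4b and Scn4a, the pacemaker channel genes Hcn2 and Hcn4, and the gap junction genes Gja1, Gja5 and Gjc1. They were picked by symbol, through the Ensembl identifier of each row and the GENCODE M21 annotation, and make up 7 of the 22608 genes of the count table. All 7 were among the 11319 genes tested.

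The hearts came from 11 male mice on a C57BL/6J background aged 8 to 16 weeks. CD mice carry a heterozygous complete deletion of the region that is missing in Williams-Beuren syndrome, a developmental disorder with cardiovascular disease, and WT mice were their littermates. JZL184, an inhibitor of the enzyme that breaks down the endocannabinoid 2-arachidonoylglycerol, was injected daily at 8 mg/kg for 10 days, and the other mice of each genotype received vehicle. The groups were WT VEH with 2 mice, WT JZL184 with 3, CD VEH with 3 and CD JZL184 with 3, and the treatment label of the vehicle groups reads untreated while their titles name the vehicle. The source is given as ventricle and the tissue as heart. Mice are named here by the letters of their columns.

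Sodium channels open first when a heart muscle cell is excited. Their alpha subunits form the pore, and their beta subunits modify gating and hold the channel at the membrane. HCN channels carry the pacemaker current, which drives spontaneous firing in the sinoatrial node and is small in the working ventricle. Connexins form the gap junctions through which the impulse passes between cells. Gja1 encodes the main connexin of working ventricular muscle, Gja5 that of the atria, the fast conduction system and arterial endothelium, and Gjc1 that of the nodes and conduction system.

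The positions of the genes in GRCm38 follow GENCODE M21. Scn4b lies at chr9:45138395-45154152 on the plus strand, Scn4a at chr11:106318592-106353288 on the minus strand, Hcn2 at chr10:79716634-79736108 on the plus strand and Hcn4 at chr9:58823412-58863175 on the plus strand. Gja1 lies at chr10:56377330-56402513 on the plus strand, Gja5 at chr3:96904693-97077416 on the plus strand and Gjc1 at chr11:102799579-102819700 on the minus strand. The annotated span of Gja5 overlaps Gpr89 and antisense transcripts. Whether they share exon sequence with it was not examined, and whether the reads were counted by strand is not given in the sources used here. An effect of this overlap on its counts was not tested. None of the 7 genes lies on chromosome 5, which carries the deleted region.

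RefSeq promoters in GRCm38.p6 matched 6 of the 7 genes. The 250 bases before the start are shown for Hcn2, Hcn4 and Gja1, because Hcn2 and Hcn4 differed in opposite directions between CD and WT mice under the drug, and Gja1, like Hcn4, was higher in CD JZL184 than in CD VEH. The windows are chr10:79716384-79716633 for Hcn2, chr9:58822699-58822948 for Hcn4 and chr10:56377050-56377299 for Gja1, all on the plus strand and written 5′ to 3′. Capitals mark matches, on either strand, to 7 short motifs. These were the core promoter element TATAAA, the GC box that is spelled GGGCGG, the motif of erythroid and cardiac GATA factors spelled AGATAA, the motif of T-box factors spelled AGGTGT, the motif of the cardiac homeobox factor Nkx2-5 spelled TNAAGTG, the motif of AP-1 spelled TGAGTCA and the E-box of the circadian clock factors spelled CACGTG. No motif overlapped another in these windows.
Hcn2: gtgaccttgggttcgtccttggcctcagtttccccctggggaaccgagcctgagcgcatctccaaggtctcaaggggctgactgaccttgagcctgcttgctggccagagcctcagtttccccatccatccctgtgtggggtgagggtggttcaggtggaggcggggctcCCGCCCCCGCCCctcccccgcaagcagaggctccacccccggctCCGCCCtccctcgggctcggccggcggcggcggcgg
Hcn4: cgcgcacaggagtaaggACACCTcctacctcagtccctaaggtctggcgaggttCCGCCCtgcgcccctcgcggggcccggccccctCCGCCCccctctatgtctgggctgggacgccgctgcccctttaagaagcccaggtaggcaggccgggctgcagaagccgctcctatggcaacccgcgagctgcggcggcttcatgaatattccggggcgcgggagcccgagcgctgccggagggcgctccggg
Gja1: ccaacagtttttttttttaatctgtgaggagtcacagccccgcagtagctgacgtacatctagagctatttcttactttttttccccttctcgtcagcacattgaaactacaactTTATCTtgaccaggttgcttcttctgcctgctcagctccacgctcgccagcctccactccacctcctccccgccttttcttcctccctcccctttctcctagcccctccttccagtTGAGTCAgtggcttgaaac
The GC box was matched 3 times in the Hcn2 window, 80, 74 and 36 bases before the start, and 2 times in that of Hcn4, 196 and 163 bases before it. Of 32851 promoter windows of the same length, 32.7% held it. The Hcn4 window also matched the T-box motif 233 bases before the start, as did 11.8% of all windows. The Gja1 window matched the GATA motif 135 bases and the AP-1 motif 19 bases before the start, which 9.99% and 4.46% of all windows held. Both pacemaker genes had GC-rich windows, 70.4% for Hcn2 and 71.2% for Hcn4, against 50.0% for Gja1 and a median of 52.4% over all windows.

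Libraries held 69660329 to 92251550 estimated counts. Of 21 listed genes of the deleted region, 14 were tested and all 14 were lower in CD VEH than in WT VEH, with a median fold of 0.496, and in CD JZL184 than in WT JZL184, with a median fold of 0.533. The working cardiomyocyte markers were all detected, the skeletal muscle markers summed to between 1.79 and 2.97 CPM (counts scaled to the size of the library) in each mouse, and of the 6 atrial markers Myl7, Sln and Bmp10 stayed at or below 0.521, 0.188 and 0.0248 CPM. The atrial sum was 55.8 to 228 CPM, nearly all of it Nppa, a natriuretic peptide gene that the ventricle can express too, at 49.2 to 220 CPM. Of the 8 nodal markers, Isl1 had at most 1 count and Shox2 at most 0.587 CPM, while Tbx3 stood at 6.34 to 10.1 CPM and Cacna1g at 4.45 to 13.1 CPM. WT JZL184 mouse B stood apart with a cardiomyocyte marker sum of 32483 CPM, against 38163 to 44842 in the other mice, and CD VEH mouse A with an erythroid sum of 13290 CPM. Differences of the 7 genes that were called or lost without mouse B, or that moved most, are given with and without it.

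Per kilobase of merged exons, Gja1 was the most abundant of the 7 genes and Hcn4 the least in every group. In WT VEH the mean levels were 34.4 ± 3.16 CPM per kilobase for Gja1, 7.58 ± 0.00115 for Scn4b, 5.11 ± 0.886 for Hcn2, 2.13 ± 0.101 for Scn4a, 2.12 ± 0.00899 for Gjc1, 0.914 ± 0.0553 for Gja5 and 0.530 ± 0.0205 for Hcn4 (SD, n = 2). Only Scn4a and Gjc1 were neighbours whose mice overlapped in this group. In CD JZL184 the order of Scn4a, at 3.53 ± 0.155, and Hcn2, at 3.46 ± 0.533 (SD, n = 3), could not be told apart either. With the longest transcript as the length, the level of Gja1 over all mice was 83.3 CPM per kilobase in place of 31.6, and Gjc1 ranked above Scn4a in WT VEH.

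Gja1 made up 76.2% ± 4.86 of the summed level of the 19 listed connexins per kilobase of merged exons (SD over the 11 mice). With the longest transcript as the length its share was 87.5% ± 2.90. Hcn2 made up 89.0% ± 3.46 of the summed level of Hcn2, Hcn3 and Hcn4. The Hcn4 share of that sum was 9.50% ± 1.83 in WT VEH, 6.99% ± 2.95 in WT JZL184, 10.6% ± 0.494 in CD VEH and 14.6% ± 0.423 in CD JZL184. Without WT JZL184 mouse B the mean of its group was 8.57% ± 1.56 (SD, n = 2). The 3 CD JZL184 mice, at 14.2% to 15.0%, lay above all other mice in this share.

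**Figure D1:**
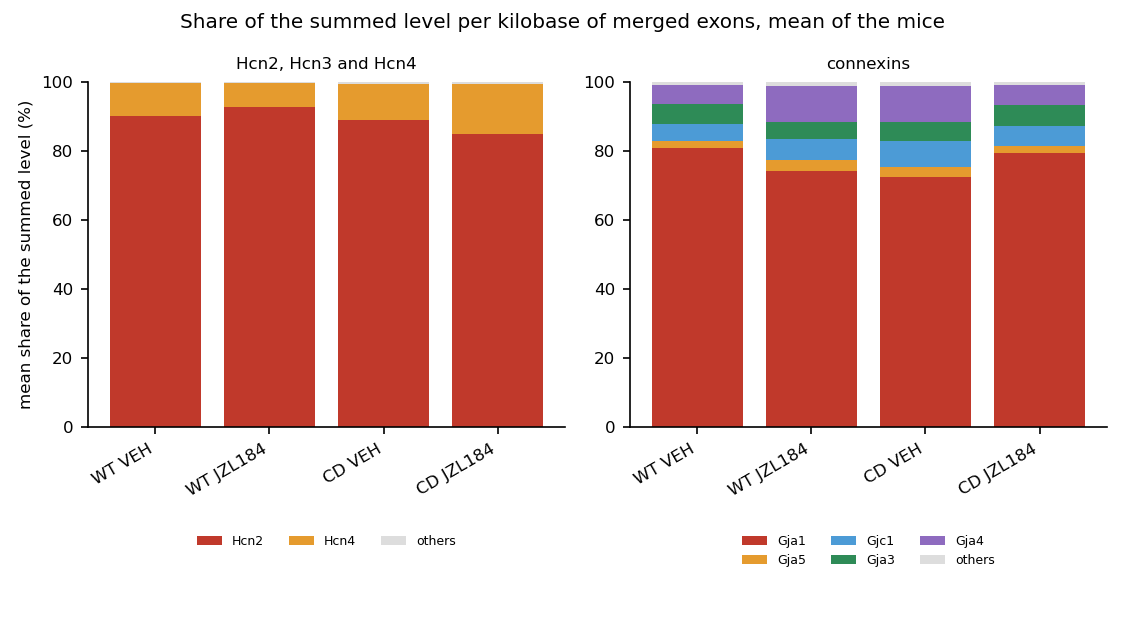
Mean share of each gene, in percent per kilobase of merged exons, in the summed level of Hcn2, Hcn3 and Hcn4 (left) and of the 19 listed connexins (right) for the 4 groups (stacked bars, untested genes under others). Hcn2 and Gja1 take most of the level in every group, and the Hcn4 share is 14.6% in CD JZL184 and 6.99% in WT JZL184.

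The comparison of CD VEH with WT VEH asks what the deletion does to these genes without drug. Of the 7 genes 2 passed the test, where 30.4% of all tested genes did. Hcn2 was lower and Gjc1 higher, and of all genes 15.0% were higher and 15.4% lower. The comparison of CD JZL184 with CD VEH asks what the drug does in the deletion mice, and here 3 of 7, Scn4a, Hcn4 and Gja1, were higher and none was lower, where 16.8% of all genes were higher, 17.0% lower and 33.9% changed in either direction. In WT mice JZL184 was followed by a higher level of 1 of 7, Gjc1, against 29.4% of all genes called, 15.4% higher and 14.0% lower. Under the drug, CD and WT mice differed in 4 of 7, against 38.3% of all genes (18.2% higher and 20.1% lower), with Scn4a and Hcn4 higher in CD and Hcn2 and Gja5 lower. CD JZL184 and WT VEH mice differed in 0 of 7, against 0.186% of all genes by edgeR (0.0442% higher and 0.141% lower), with 1059 of the 11319 genes at an unadjusted p under 0.05 and 104 called by DESeq2. The members at an unadjusted p under 0.05 in that comparison were Scn4a (0.00444), Gjc1 (0.00781) and Hcn2 (0.0141), and DESeq2 called Scn4a. Comparisons that name a group share its mice, so they are not independent. With 7 genes in the set, nothing particular to it is read from these shares.

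**Figure D2:**
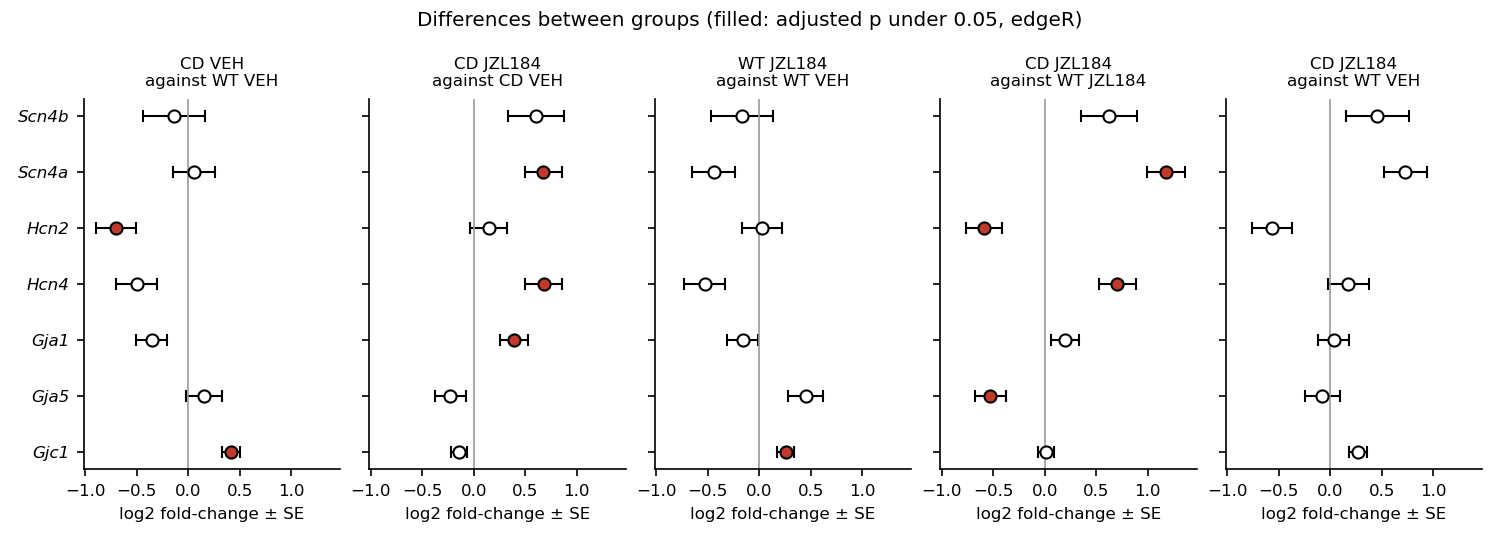
Fitted log2 fold-change of each gene with its standard error in 5 comparisons, 1 panel each, with filled points at an adjusted p under 0.05 by edgeR. Hcn2 is called lower in CD than in WT with and without the drug, and the last panel holds no filled point.

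Scn4b encodes a beta subunit that has been linked to the resurgent sodium current. Both WT VEH mice, C and D, had 37.8 CPM, and there were 29.4, 46.2 and 25.5 CPM in the WT JZL184 mice A, B and D. The CD VEH mice A, C and E had 29.9, 51.5 and 21.2 CPM, and the CD JZL184 mice A, C and E had 50.0, 54.3 and 51.3 CPM. The CD JZL184 mice were close together and high, whereas the CD VEH mice spread widely, with an SD of 45.6% of their mean, and their mouse C fell among the CD JZL184 mice. No comparison passed the test for Scn4b. CD JZL184 exceeded CD VEH by 0.60 ± 0.27 (log2 fold-change ± SE; adjusted p = 0.102 by edgeR) and WT JZL184 by 0.62 ± 0.27 (adjusted p = 0.0868). Without CD VEH mouse C the first difference was 1.03 (adjusted p = 0.00598 by edgeR) and without CD VEH mouse E it was 0.36 (adjusted p = 0.308 by edgeR), and without WT JZL184 mouse B the second was 0.92 (adjusted p = 0.0240 by edgeR). CD JZL184 exceeded WT VEH by 0.46 ± 0.30, without overlap between the groups (adjusted p = 0.664 by edgeR). That difference was called under 1 of 13 alternatives (adjusted p = 0.0106 by edgeR).

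Scn4a encodes the pore subunit known best from skeletal muscle. In WT VEH it stood at 15.5 and 14.5 CPM, and in WT JZL184 at 9.04, 11.2 and 12.8 CPM. CD VEH mice had 14.3, 21.2 and 11.3 CPM, and CD JZL184 mice had 23.6, 25.6 and 25.3 CPM. All 3 CD JZL184 mice lay above every mouse of the other groups, and CD VEH mouse C was again the highest of its group. The rise from CD VEH to CD JZL184 was 0.68 ± 0.18 on the log2 scale, 1.60-fold (adjusted p = 0.0163 by edgeR). This call was lost without CD VEH mouse A or E (adjusted p = 0.0630 and 0.0550 by edgeR), and without mouse C the rise was 0.97 (adjusted p = 0.00119 by edgeR). CD JZL184 exceeded WT JZL184 by 1.18 ± 0.19, 2.26-fold (adjusted p = 0.00124 by edgeR), which was called under all 14 alternatives run. Against WT VEH the difference of CD JZL184 was 0.73 ± 0.21, without overlap between the groups, and was not called (adjusted p = 0.297 by edgeR, 0.0426 by DESeq2). CD VEH and WT VEH overlapped (0.06 ± 0.21, adjusted p = 0.854 by edgeR). The skeletal muscle marker sum was 1.79 to 2.39 CPM in CD JZL184 and 2.27 to 2.97 CPM in CD VEH, and the marker Myh4 had 3 counts or fewer in every mouse.

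Of 9 listed sodium channel alpha subunit genes, 2 were tested, Scn4a and Scn7a. Scn7a, a sodium-sensing channel found outside muscle cells too, was higher by 0.25 in CD VEH (adjusted p = 0.0384 by edgeR) and lower in CD JZL184 than in CD VEH (log2 fold-change -0.27, adjusted p = 0.0159 by edgeR). The first call was kept under 8 of 13 alternatives and was lost with only the compared groups fitted, without either WT VEH mouse and without CD VEH mouse A or C (adjusted p = 0.0571 to 0.300 by edgeR). The log2 fold-change was 0.15 without WT VEH mouse D and 0.40 with the length offset. The second call was kept under 12 of 14 and lost without CD JZL184 mouse C or CD VEH mouse A (adjusted p = 0.0559 and 0.0789 by edgeR). Scn10a, at 0.711 to 1.90 CPM, and Scn3a, at 1.49 to 2.51 CPM, did not reach the filter. Of the listed beta subunit genes, Scn4b was tested, and Scn2b and Scn3b stayed at or below 0.820 and 1.41 CPM.

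Among 12 partners of sodium channels, 10 were tested. Between CD VEH and WT VEH, 1 was higher in CD and 6 were lower, with a median log2 fold-change of -0.35 beside 0.01 over all tested genes. From CD VEH to CD JZL184, 5 were higher and 1 was lower, and from WT VEH to WT JZL184, 0 were higher and 6 were lower. Of all tested genes 15.4% were lower in the first of these comparisons, 16.8% higher in the second and 14.0% lower in the third. Without WT VEH mouse C none of the partners was called in the first or the third comparison, and without mouse D 1 was higher and 3 lower in the first and 4 were lower in the third. Ank2, which encodes the adaptor ankyrin-B, was lower in CD VEH (-0.54, adjusted p = 0.00466), higher in CD JZL184 than in CD VEH (0.48, adjusted p = 0.00376) and lower in WT JZL184 than in WT VEH (-0.51, adjusted p = 0.00534, all by edgeR). With an offset for transcript length these values of Ank2 were -0.24, 0.22 and -0.28 (adjusted p = 0.0261, 0.0220 and 0.0128 by edgeR). The same offset removed the calls of the partners Rangrf, Ank3 and Nedd4l in CD VEH against WT VEH. Their log2 fold-changes were then 0.06, -0.22 and -0.18 (adjusted p = 0.542, 0.0590 and 0.0849 by edgeR), and Rangrf had been the 1 higher gene. Slmap, a membrane-associated protein gene, differed by -0.44 between CD VEH and WT VEH (adjusted p = 0.0720 by edgeR).

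**Figure D3:**
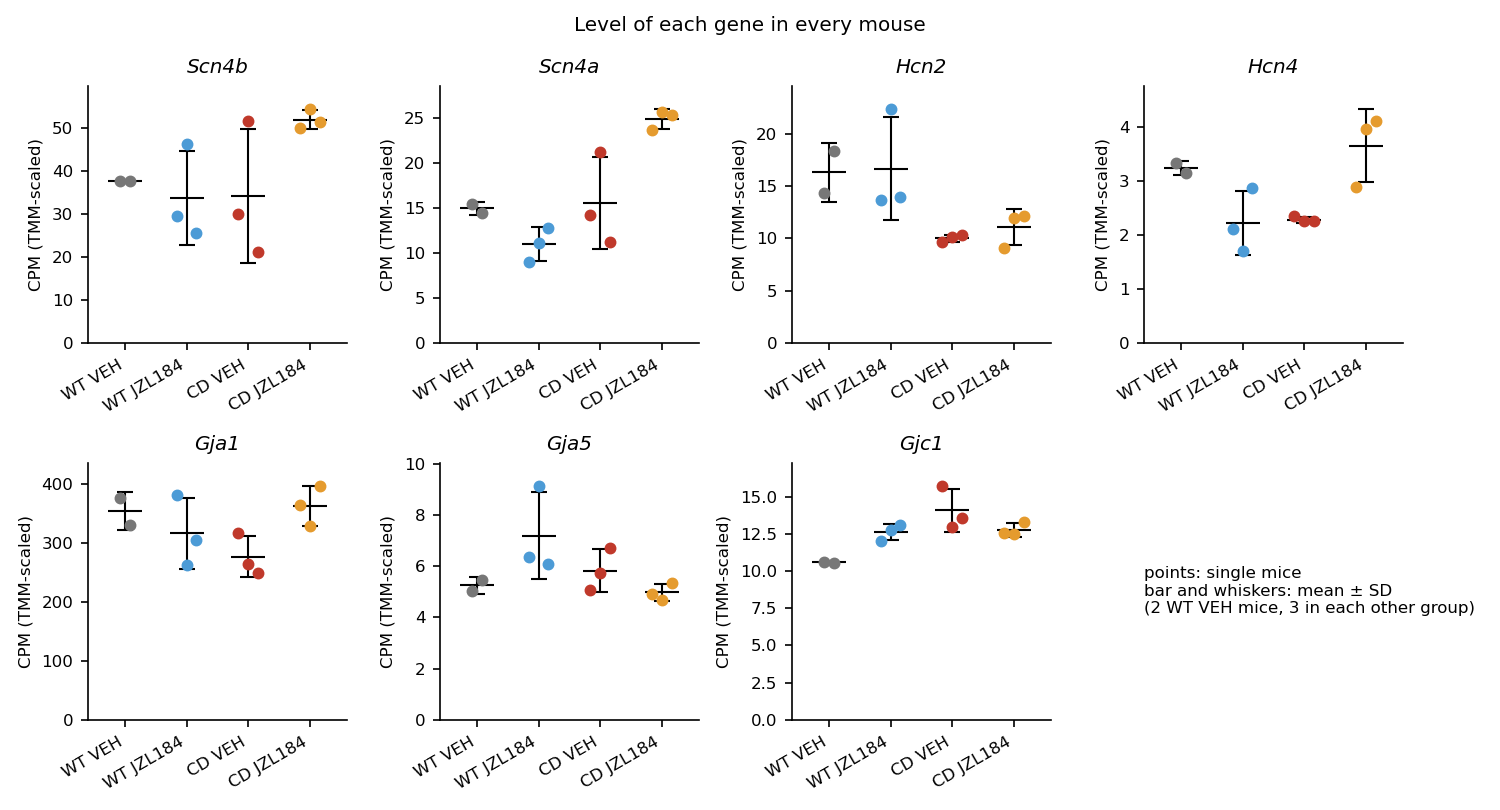
Level of each of the 7 genes in CPM in every mouse (points), with the mean and SD of each group (bar and whiskers), 1 panel per gene with its own axis from 0. The 3 CD JZL184 mice lie above all others for Scn4a, and both CD groups lie below both WT groups for Hcn2.

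Hcn2 encodes the HCN channel that predominates in ventricular muscle. WT VEH mice had 14.3 and 18.3 CPM, and WT JZL184 mice had 13.7, 22.3 and 14.0 CPM. In CD VEH the values were 9.66, 10.1 and 10.3 CPM, and in CD JZL184 they were 9.09, 12.0 and 12.1 CPM. Every CD mouse was below every WT mouse, whatever the treatment, and WT JZL184 mouse B was the highest of all. The log2 fold-change was -0.70 ± 0.20 for CD VEH against WT VEH, a fold of 0.613 (adjusted p = 0.0207 by edgeR), and the call was lost without CD VEH mouse A or WT VEH mouse C or D (adjusted p = 0.0610, 0.0588 and 0.172 by edgeR). Under the drug it was -0.59 ± 0.18, a fold of 0.665 (adjusted p = 0.0217 by edgeR). Without WT JZL184 mouse B the second difference was -0.32 (adjusted p = 0.0742 by edgeR), without CD JZL184 mouse A it was -0.47 (adjusted p = 0.0846 by edgeR), and in a fit of the compared groups alone it was -0.60 (adjusted p = 0.0501 by edgeR). The drug was followed by differences of 0.14 ± 0.18 in CD mice (adjusted p = 0.557) and 0.03 ± 0.20 in WT mice (adjusted p = 0.930, both by edgeR), the second of which was -0.24 without WT JZL184 mouse B (adjusted p = 0.234 by edgeR). CD JZL184 against WT VEH gave -0.56 ± 0.20 (adjusted p = 0.402 by edgeR), without overlap.

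A contrast of CD with WT averaged over both treatments was added after these values were seen, and it cannot count as independent support. It gave -0.65 ± 0.13 for Hcn2 (adjusted p = 0.0380 by edgeR, 0.000164 by DESeq2), and Hcn2 was the 1 member called, where 1.09% of all tested genes were called, with 0.415% higher and 0.671% lower. The call was kept without WT JZL184 mouse B (-0.51, adjusted p = 0.0128 by edgeR) and lost when any mouse of the WT VEH, CD VEH or CD JZL184 groups was left out, with adjusted p between 0.0620 and 0.199. The longest transcript of Hcn2 is 65.4% GC. With an offset for GC content the differences were -0.85 without the drug (adjusted p = 0.00359 by edgeR) and -0.57 with it (adjusted p = 0.00697 by edgeR).

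Hcn4 encodes the main HCN channel of the sinoatrial node. Its level was low, at 121 to 390 counts per mouse. WT VEH mice had 3.33 and 3.15 CPM, and WT JZL184 mice had 2.12, 1.70 and 2.87 CPM. In CD VEH the values were 2.35, 2.26 and 2.25 CPM, and in CD JZL184 they were 2.89, 3.98 and 4.11 CPM. The CD VEH mice were tightly grouped and below all mice of WT VEH and CD JZL184, whereas the CD JZL184 mice overlapped with WT VEH. Hcn4 was 1.60-fold higher in CD JZL184 than in CD VEH (log2 fold-change 0.68 ± 0.18, adjusted p = 0.0146 by edgeR), a call lost without CD JZL184 mouse E (adjusted p = 0.0603 by edgeR). It was 1.63-fold higher in CD JZL184 than in WT JZL184 (0.71 ± 0.18, adjusted p = 0.0101 by edgeR), a difference called under all 14 alternatives. CD VEH differed from WT VEH by -0.50 ± 0.20 (adjusted p = 0.0753 by edgeR) and WT JZL184 from WT VEH by -0.53 ± 0.20 (adjusted p = 0.0662 by edgeR), both without overlap between the groups. The first was called with the GC content offset and with only the compared groups fitted (adjusted p = 0.0456 and 0.0147 by edgeR). The second was called by DESeq2 (adjusted p = 0.0421), with the GC content offset and without WT JZL184 mouse D (adjusted p = 0.0392 and 0.0162 by edgeR). Hcn4 and Hcn2 thus differed between CD and WT mice in opposite directions under the drug.

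Hcn3, at or below 0.157 CPM, did not reach the filter. Of the channel partners, Mrvi1 was tested, a relative of Lrmp that binds inositol trisphosphate receptors. It was higher in CD VEH than in WT VEH (0.41, adjusted p = 0.0204) and lower in CD JZL184 than in CD VEH (-0.30, adjusted p = 0.0388, both by edgeR). The first call was lost without CD VEH mouse A or either WT VEH mouse (adjusted p = 0.0698 to 0.112 by edgeR), and the second without any CD JZL184 mouse or CD VEH mouse A or C (adjusted p = 0.0564 to 0.183 by edgeR), with a log2 fold-change of -0.18 without CD VEH mouse A. The summed nodal and conduction cell markers were 26.9 and 28.4 CPM in WT VEH, 22.2 to 28.0 CPM in WT JZL184, 23.6 to 26.6 CPM in CD VEH and 23.5 to 29.4 CPM in CD JZL184. These ranges overlapped between all groups but WT VEH and CD VEH. The sum does not follow each marker. Of the 3 nodal markers tested, Tbx3 and Tbx18 were higher in CD VEH than in WT VEH and lower in CD JZL184 than in CD VEH, with a log2 fold-change of 0.50 for Tbx3 in the first (adjusted p = 0.00854) and -0.46 in the second (adjusted p = 0.00608, both by edgeR). The third, the calcium channel gene Cacna1g, had the opposite sign in both, at -0.68 (adjusted p = 0.0691) and 0.62 (adjusted p = 0.0619), and was higher in CD JZL184 than in WT JZL184 (0.69, adjusted p = 0.0410, all by edgeR), where Tbx3 was lower (-0.39, adjusted p = 0.0102 by edgeR). In bulk tissue, fewer cells of a type and less RNA per cell cannot be told apart.

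Gja1 was by far the most abundant, with 18600 to 34415 counts per mouse. It stood at 376 and 330 CPM in WT VEH, and at 380, 262 and 304 CPM in WT JZL184. CD VEH mice had 315, 263 and 249 CPM, and CD JZL184 mice had 363, 327 and 396 CPM. The CD VEH mice lay below both WT VEH and all CD JZL184 mice, and WT JZL184 spanned nearly the whole range. Gja1 was 1.31-fold higher in CD JZL184 than in CD VEH (0.39 ± 0.13, adjusted p = 0.0414 by edgeR). This call was lost with an offset for transcript length (adjusted p = 0.0563 by edgeR) and without any of CD JZL184 mice A and E and CD VEH mice C and E (adjusted p = 0.0892 to 0.142 by edgeR). CD VEH against WT VEH gave -0.36 ± 0.15 (adjusted p = 0.0870 by edgeR, 0.0459 by DESeq2).

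Gja5 stood at 5.03 and 5.48 CPM in WT VEH, and at 6.37, 9.15 and 6.08 CPM in WT JZL184. CD VEH mice had 5.06, 5.73 and 6.72 CPM, and CD JZL184 mice had 4.91, 4.70 and 5.33 CPM. WT JZL184 mouse B was the highest of all, and the WT JZL184 mice lay above all WT VEH and CD JZL184 mice. Gja5 was lower in CD JZL184 than in WT JZL184, at a fold of 0.693 (log2 fold-change -0.53 ± 0.15, adjusted p = 0.0170 by edgeR). Without mouse B the difference was -0.32 (adjusted p = 0.0603 by edgeR), and the call was also lost without CD JZL184 mouse A or C (adjusted p = 0.0504 and 0.0532 by edgeR). WT JZL184 exceeded WT VEH by 0.45 ± 0.17 (adjusted p = 0.0658 by edgeR, 0.0365 by DESeq2), and without mouse B by 0.25 (adjusted p = 0.200 by edgeR). It was called without WT JZL184 mouse A or D (adjusted p = 0.0386 and 0.0405 by edgeR).

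Gjc1 varied least among the 7 genes, with an SD over all mice of 11.1% of its mean. Both WT VEH mice had 10.6 CPM, and WT JZL184 mice had 12.1, 12.8 and 13.1 CPM. In CD VEH the values were 15.7, 13.0 and 13.6 CPM, and in CD JZL184 they were 12.5, 12.5 and 13.3 CPM. Both WT VEH mice lay below the other 9 mice. Gjc1 was 1.33-fold higher in CD VEH than in WT VEH (0.41 ± 0.08, adjusted p = 0.00639 by edgeR) and 1.20-fold higher in WT JZL184 than in WT VEH (0.26 ± 0.08, adjusted p = 0.0400 by edgeR). The first call was lost without WT VEH mouse C (adjusted p = 0.0593 by edgeR). The second call was lost under 8 of 13 alternatives, the leaving out of either WT VEH mouse among them (adjusted p = 0.157 and 0.159 by edgeR) and that of WT JZL184 mouse B or D (adjusted p = 0.0808 and 0.0924 by edgeR). CD JZL184 against WT VEH gave 0.27 ± 0.08 (adjusted p = 0.324 by edgeR), and CD JZL184 against CD VEH gave -0.14 ± 0.07 (adjusted p = 0.150 by edgeR).

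Of 19 listed connexin genes, 5 were tested, the 3 above with Gja3 and Gja4. Gja4, an arterial endothelial connexin, was 3.30 and 4.59 CPM in WT VEH and 5.85 to 7.44 CPM in CD VEH. It was higher in CD VEH (0.71, adjusted p = 0.0251), higher in WT JZL184 than in WT VEH (0.85, adjusted p = 0.0129) and lower in CD JZL184 than in CD VEH (-0.55, adjusted p = 0.0361, all by edgeR). The first of these calls was lost without WT VEH mouse C or CD VEH mouse A or E (adjusted p = 0.0503 to 0.211 by edgeR) and the second without WT VEH mouse C (adjusted p = 0.129 by edgeR). The third was kept under 8 of 14 alternatives and lost with the length offset and without any CD JZL184 mouse or CD VEH mouse A or E (adjusted p = 0.0658 to 0.144 by edgeR). Gja3, best known from the lens, was 7.89 to 8.14 CPM in the CD JZL184 mice, above all others, and exceeded CD VEH by 0.37 (adjusted p = 0.00423 by edgeR). In the 14 intercalated disc genes, which tie the muscle cells end to end, 0 were higher and 8 lower in CD VEH than in WT VEH, and 9 were higher and 0 lower in CD JZL184 than in CD VEH. In WT mice the drug was followed by 1 higher and 7 lower. The counts against WT VEH rest on its 2 mice. Without WT VEH mouse C they were 0 higher and 1 lower for CD VEH and 0 and 0 for WT JZL184, and without mouse D they were 0 and 3 for each, while 6 to 9 were higher in CD JZL184 than in CD VEH when each mouse of those groups was left out in turn. Of all tested genes 15.4% were lower in the first comparison, 16.8% higher in the second and 14.0% lower in the third. The medians were -0.35, 0.37 and -0.37 in log2, beside 0.01, -0.00234 and -0.00259 over all tested genes. Cxadr, a junctional adhesion receptor gene, was lower in CD VEH (-0.69, adjusted p = 0.00906) and in WT JZL184 (-0.53, adjusted p = 0.0249) than in WT VEH, and differed by 0.36 between CD JZL184 and CD VEH (adjusted p = 0.0638, all by edgeR). The call of Cxadr in WT JZL184 was lost with only the compared groups fitted and without WT JZL184 mouse D or either WT VEH mouse (adjusted p = 0.0523 to 0.142 by edgeR). Dsp, the desmosomal plaque gene, was lower in CD VEH (-0.66, adjusted p = 0.00534) and in WT JZL184 (-0.65, adjusted p = 0.00547) than in WT VEH, and higher in CD JZL184 than in CD VEH (0.57, adjusted p = 0.00487, all by edgeR).

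Of 16 transcription factors of the conduction system and heart, 14 were tested, with 3 higher and 2 lower in CD VEH than in WT VEH and 6 higher and 3 lower in CD JZL184 than in CD VEH. In WT JZL184 against WT VEH 2 were higher and 3 lower. Without WT VEH mouse C, 0 were called in CD VEH and 1 was higher in WT JZL184. In CD JZL184 against CD VEH 3 were higher and 2 lower without CD VEH mouse A and 3 and 3 without CD JZL184 mouse A. Of all tested genes 30.4%, 33.9% and 29.4% were called in these comparisons, and the medians of the list were -0.05, 0.23 and -0.02 in log2. Tbx18, which acts in formation of the sinoatrial node, was higher in CD VEH (0.57, adjusted p = 0.00614) and lower in CD JZL184 than in CD VEH (-0.39, adjusted p = 0.0124, both by edgeR). Tbx20, a factor of working muscle, was lower in CD VEH (-0.56, adjusted p = 0.00466) and in WT JZL184 (-0.51, adjusted p = 0.00655) than in WT VEH, and higher in CD JZL184 than in CD VEH (0.47, adjusted p = 0.00501, all by edgeR). With the length offset these values of Tbx20 were -0.36, -0.36 and 0.29 (adjusted p = 0.0131, 0.0108 and 0.0193 by edgeR). Without WT VEH mouse C the calls of Ank2, Dsp, Cxadr, Tbx3, Tbx18 and Tbx20 in CD VEH against WT VEH were lost (adjusted p = 0.0576 to 0.0938 by edgeR), as were those of Ank2, Dsp, Cxadr, Tbx3 and Tbx20 in WT JZL184 against WT VEH (adjusted p = 0.0579 to 0.142 by edgeR). The fall of Tbx18 in CD JZL184 was not called without CD VEH mouse A (adjusted p = 0.0622 by edgeR).

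**Figure D4:**
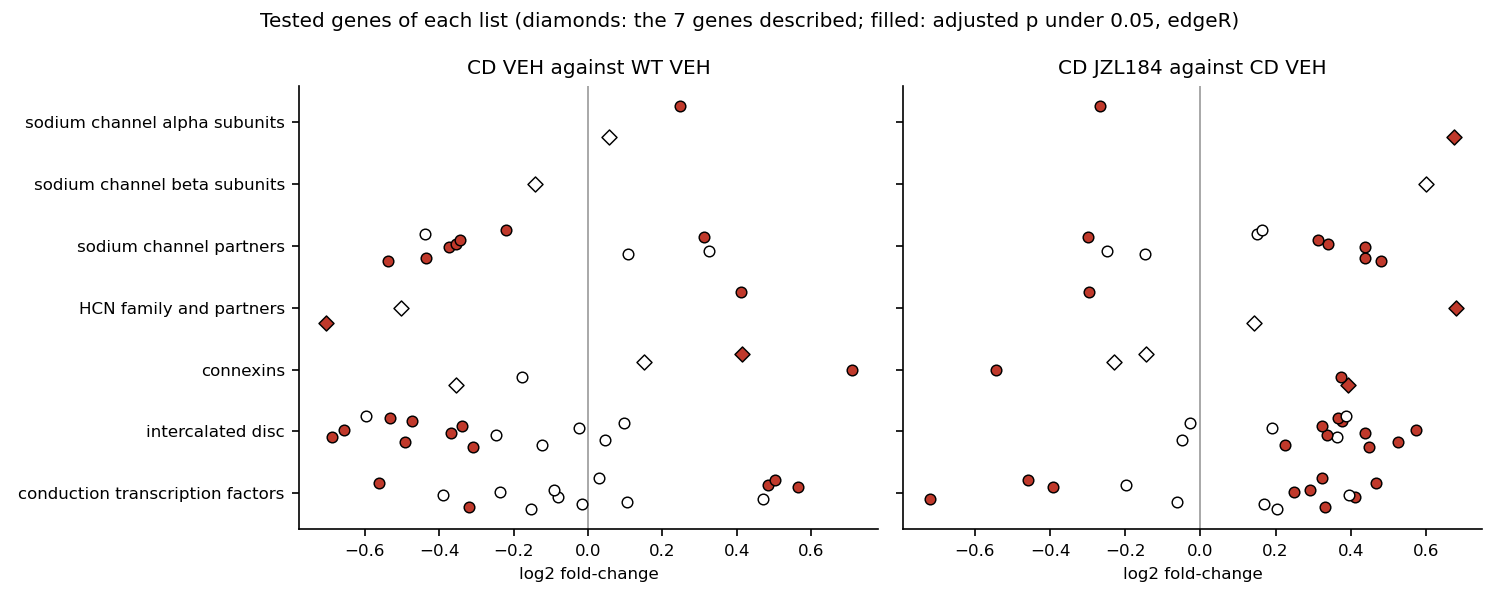
Log2 fold-change of every tested gene of 7 gene lists in CD VEH against WT VEH (left) and CD JZL184 against CD VEH (right). Points within a list are spread vertically only to keep them apart, diamonds are the 7 genes described and filled symbols passed the test, and among intercalated disc genes 8 are called lower on the left, of which 1 is called without WT VEH mouse C, and 9 higher on the right.

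The response to JZL184 differed between genotypes in 5 of the 7 genes by the interaction term, where 51.5% of all tested genes did, 25.3% with a positive and 26.2% with a negative term. On the log2 scale the CD response exceeded the WT response by 1.21 ± 0.27 for Hcn4 (adjusted p = 0.00320), 1.12 ± 0.28 for Scn4a (adjusted p = 0.00577) and 0.55 ± 0.20 for Gja1 (adjusted p = 0.0357, all by edgeR). It was lower by 0.68 ± 0.23 for Gja5 (log2 difference -0.68, adjusted p = 0.0260) and by 0.40 ± 0.11 for Gjc1 (log2 difference -0.40, adjusted p = 0.0112, both by edgeR). The term was 0.12 ± 0.26 for Hcn2 (adjusted p = 0.727) and 0.77 ± 0.40 for Scn4b (adjusted p = 0.130, both by edgeR). Without WT JZL184 mouse B these were 0.39 for Hcn2 (adjusted p = 0.0902) and 1.06 for Scn4b (adjusted p = 0.0310, both by edgeR), and without CD VEH mouse C the term of Scn4b was 1.19 (adjusted p = 0.00763 by edgeR). The calls of Hcn4, Scn4a and Gjc1 were kept under all 18 alternatives, that of Gja5 under 14 and that of Gja1 under 11. The Gja5 call was lost without CD JZL184 mouse C, CD VEH mouse E or WT VEH mouse C or D (adjusted p = 0.0518 to 0.0938 by edgeR). The Gja1 call was lost without CD JZL184 mouse A or E, CD VEH mouse C or E, WT JZL184 mouse B or D or WT VEH mouse C (adjusted p = 0.0565 to 0.141 by edgeR).

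Markers of other cell types and the mitochondrial share moved with these interactions. The 8 endothelial markers summed to 706 and 711 CPM in WT VEH, 1060 to 1109 CPM in WT JZL184, 897 to 988 CPM in CD VEH and 691 to 777 CPM in CD JZL184. All 8 were higher in WT JZL184 than in WT VEH, 6 of 8 were higher in CD VEH than in WT VEH and 7 of 8 lower in CD JZL184 than in CD VEH. Of all tested genes 15.4% and 15.0% were higher in the first and second of these comparisons, and 17.0% were lower in the third. The 4 pericyte markers summed to 527 and 547 CPM in WT VEH, 758 to 842 CPM in WT JZL184, 749 to 884 CPM in CD VEH and 543 to 558 CPM in CD JZL184. In the same 3 comparisons 4 and 3 of the pericyte markers were called higher and 2 lower. Of the 7 fibroblast markers 4 and 3 were called higher and 3 lower. The arterial endothelial, fibroblast and macrophage sums were also higher in every WT JZL184 and CD VEH mouse than in every WT VEH and CD JZL184 mouse. So was the sum of the adipocyte list, but nearly all of it was Fabp4, at 260 to 619 CPM, which capillary endothelium expresses too, and its 4 other markers stayed at or below 1.09 CPM. The 8 cardiomyocyte markers summed to 43444 and 44842 CPM in WT VEH, 32483 to 42826 CPM in WT JZL184, 38163 to 40882 CPM in CD VEH and 42036 to 43689 CPM in CD JZL184. Transcripts of the mitochondrial genome took 39.4% and 41.2% of counts in WT VEH, 45.0% to 46.6% in WT JZL184, 43.5% to 44.7% in CD VEH and 36.4% to 40.1% in CD JZL184. Hcn4 and Gja1 had their lower group means, and Gja5 and Gja4 their higher ones, in the groups with more endothelial RNA. The part of cell makeup and of the mitochondrial share in these results was not tested, beyond the fit without mitochondrial genes, which changed no call of a member. Across 11240 genes, which are not independent replicates, the log2 fold-change correlated with log10 transcript length at r = -0.39 in CD VEH against WT VEH and r = 0.443 in CD JZL184 against CD VEH. With an offset for length the rise in CD JZL184 over CD VEH was 0.58 for Hcn4 (adjusted p = 0.0270) and 0.56 for Scn4a (adjusted p = 0.0323, both by edgeR).

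**Figure D5:**
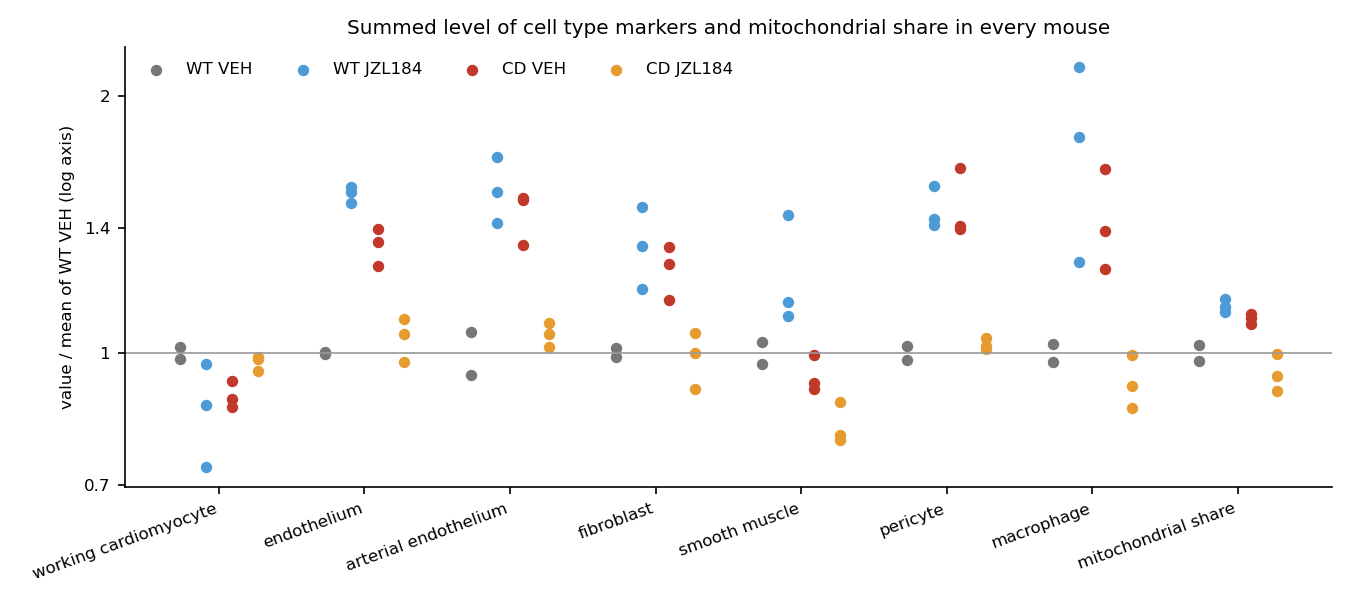
Summed CPM of 7 cell type marker lists and the mitochondrial share of counts in every mouse, each divided by the mean of the WT VEH mice (log axis). The WT JZL184 and CD VEH mice lie above the WT VEH and CD JZL184 mice for endothelial, arterial, pericyte, fibroblast and macrophage markers and for the mitochondrial share.

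Genes were ranked by the Pearson correlation of their log2 CPM with each member over the 11 mice, given as a description of libraries that share groups and composition. Most like Scn4b were Fbxo44 (r = 0.989), Dym (r = 0.930) and Ppp1r16a (r = 0.918). With group means removed, r over all the genes named here ranged from 0.564 for Pbx3 with Hcn2 to 0.984 for Fbxo44 with Scn4b. Most like Scn4a were Synj2 (r = 0.970), Asb18 (r = 0.968) and Cep170b (r = 0.963), and most like Hcn4 were Auts2 (r = 0.953), Polr1b (r = 0.952) and Foxj2 (r = 0.949). Hcn2 was most like Myl1, a myosin light chain gene (r = 0.957), followed by Pbx3 (r = 0.876) and Ociad2 (r = 0.875). Myl1 stood at 12.1 to 25.9 CPM and was not on the skeletal muscle marker list. Hcn2, Myl1, Pbx3 and Ociad2 were all highest in WT JZL184 mouse B, and their r without it was not computed. Gja1 was most like Sesn1 (r = 0.937), Ppargc1a (r = 0.927) and Retreg1 (r = 0.925), Gja5 most like Abcg1 (r = 0.926), Spef1 (r = 0.920) and Fam129b (r = 0.917), and Gjc1 most like Samd10 (r = 0.934), Mcm9 (r = 0.916) and Hddc2 (r = 0.914).

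Among the 7 genes themselves, Scn4b and Scn4a had the highest r over the 11 mice (r = 0.764, and 0.687 with group means removed). With group means removed, Hcn2 and Gja5 had the highest (r = 0.770). Hcn4 and Gja5 ran in opposite directions (r = -0.77, and -0.57 with group means removed), but without WT JZL184 mouse B these were -0.64 and -0.10. The pacemaker genes Hcn2 and Hcn4 had an r of -0.18, which was 0.318 without mouse B. Hcn2 and Gja5, both highest in mouse B, had an r of 0.592 with it and 0.124 without it, and 0.349 without it and with group means removed.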

How the data were processed

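RNA of 11 mouse hearts was sequenced by the authors on an Illumina instrument, quantified with Salmon 0.7.2 on an Ensembl annotation of GRCm38 and summed to genes with tximport. The deposited table holds the estimated counts per gene and mouse, not normalized, which were rounded to whole numbers here. The columns carry a group and a letter, and each column was taken as a separate mouse. Of 22608 identifiers, 22238 matched GENCODE M21.

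Genes whose mean log2 CPM reached 1 were tested with edgeR 4.0.16 (quasi-likelihood test, TMM scaling, 1 mean per group over all mice, Benjamini-Hochberg adjustment over all tested genes, threshold 0.05). The fits were tested on simulated data, in which DESeq2 made false calls more often than edgeR in CD VEH against WT VEH. The simulation gave every gene the same spread and changed few genes, in CD VEH only. That differs from the data, so the rates of false calls do not carry over to the calls reported here. Alternatives were DESeq2 1.42.0, other size factors, filters and offsets, and leaving out each mouse. Levels per kilobase used the merged exons of a gene unless the longest transcript is named. The length offset, the length correlation and the GC content used the longest transcript. All 7 members were named, with their family genes, the 2 largest changes of each other list in CD VEH against WT VEH and the 3 genes most like each member. Some family genes are not reported here. Members and lists were chosen with earlier results of these data known.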

Additional observations from a re-analysis of the deposited data

Results flagged for a closer look

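The JZL184 response of 5 of the 7 genes differed between CD and WT mice by the interaction term of the edgeR fit, in opposite directions. As the log2 response in CD minus that in WT it was 1.21 for Hcn4, 1.12 for Scn4a and 0.55 for Gja1, and -0.68 for Gja5 and -0.40 for Gjc1. Among their family genes it was -0.67 for Scn7a (adjusted p = 0.000548), 0.58 for Gja3 (adjusted p = 0.00129) and -1.39 for Gja4 (adjusted p = 0.00168). Of all tested genes 51.5% had such a difference, and the endothelial, pericyte, fibroblast and macrophage marker sums and the mitochondrial share were higher in every WT JZL184 and CD VEH mouse than in every WT VEH and CD JZL184 mouse, which the erythroid and smooth muscle sums were not. Their part in these differences was not tested.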

How the results depend on the processing

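Of 721 log2 fold-changes of the members under alternatives, 708 had the direction of the reported fit, and none of the 13 with the opposite direction belonged to a called difference. The number of members called in WT JZL184 against WT VEH, reported as 1, was 3 by DESeq2, 2 with the GC content offset and 0 with no filter, with at least 10 counts in every mouse, with the length offset or with only the compared groups fitted. In CD VEH against WT VEH it was 4 with only the compared groups fitted. In CD JZL184 against WT VEH it was 1 by DESeq2 and 2 with only the compared groups fitted. In the averaged contrast, chosen after seeing the data, it was 3 by DESeq2 and 2 with no filter, with at least 10 counts in every mouse or with the length offset. Of all 11319 tested genes DESeq2 called 3761 in WT JZL184 against WT VEH, 104 in CD JZL184 against WT VEH and 442 in the averaged contrast. By edgeR these were 3329, 21 and 123. Over the alternatives other than leaving out a mouse, all-gene calls ranged from 17 to 104 in CD JZL184 against WT VEH. In the averaged contrast they ranged from 121 to 442. The cause was not tested.

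Leaving out each mouse in turn gave 0 to 2 members called in CD VEH against WT VEH, 1 to 3 in CD JZL184 against CD VEH, 0 to 2 in WT JZL184 against WT VEH, 2 to 5 in CD JZL184 against WT JZL184, 3 to 5 in the interaction and 0 to 1 in the averaged contrast. Uncalled log2 fold-changes that turned direction ranged from -0.57 to 0.10 for Scn4b and -0.23 to 0.24 for Scn4a in CD VEH against WT VEH, from -0.46 to 0.0021 for Scn4b and -0.24 to 0.22 for Hcn2 in WT JZL184 against WT VEH, from -0.021 to 0.043 for Gjc1 in CD JZL184 against WT JZL184, from -0.055 to 0.13 for Gja1 in CD JZL184 against WT VEH and from -0.072 to 0.39 for Hcn2 in the interaction. Hcn2 in WT JZL184 against WT VEH was also -0.0068 with the length offset and -0.11 with the GC content offset. Leaving out each mouse in turn gave 386 to 3541 called genes of all in CD VEH against WT VEH and 558 to 4484 in WT JZL184 against WT VEH, the lowest each time without WT VEH mouse C, and the other alternatives gave 2703 to 3957 and 1650 to 3761. The leave-one-out range over all genes was 2037 to 3911 in CD JZL184 against CD VEH and 2957 to 4874 in CD JZL184 against WT JZL184. It was 4583 to 6415 in the interaction and 40 to 259 in the averaged contrast. A group of 2 or 3 mice limits each value, and with 121 counts in its lowest mouse Hcn4 carries more counting error than Gja1. No paired analysis was possible by the replicate numbers of the labels, because the columns carry letters in place of the replicate numbers. CD VEH and CD JZL184 share the letters A, C and E, but no source used here says that a letter ties mice of different groups. A fit blocked on the letter was therefore not run.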
